A study of Mus musculus with 47 samples.

Results

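The interferon response genes described here are 38 listed genes that cells switch on after interferon signalling or that carry that signal. A member was measured where a probe set of the array carried its symbol and no other in the platform annotation, and where a gene had several, the one with the highest average signal stood for it. Of the 38 members, 35 were measured, out of 12393 genes measured in the whole series. A total of 24 of the 35 had a mean signal above 4.35 on the log2 scale, the limit below which the lowest 30% of genes fell, and were tested among 8675 genes. The other 11 (Irf7, Oasl2, Mx1, Mx2, Usp18, Ifih1, Gbp2, Gbp3, Iigp1, Psmb8 and Parp14) lay below that limit and are given separately. Xaf1 and Ifi44 had no probe set in the annotation used here, and the probe set of Isg15 carried several symbols, so these 3 members have no value.

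The cells were JB6, a mouse epidermal cell line used as a model of tumour promotion. In one stable line a retrovirus delivered a short hairpin RNA, or shRNA, directed at AnxA2, the gene of the membrane- and RNA-binding protein annexin A2, and the control line received the vector alone; both were selected with puromycin. Each line was left untreated (sham) or given 10 or 100 cGy of X-rays, and total RNA was taken at 2, 6 or 24 h. No untreated cells were taken at 6 h, so irradiated cells at 6 h had no control of their own time. The 16 groups held 3 arrays each, apart from vector cells at 24 h after 10 cGy, which held 2. There was 1 line of each kind, so the effect of the shRNA and any other difference between the 2 lines cannot be told apart. The labels do not say whether replicates were separate cultures, and p-values then measure only the spread between these samples, which may be technical.

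Interferons are secreted cytokines. Type I interferon acts through its receptor and Janus kinases on a complex that includes STAT2 and IRF9 and binds the interferon-stimulated response element (ISRE), and many genes induced by interferon gamma carry a gamma-activated site (GAS). The genes they induce include nucleic acid sensors, IFIT proteins that bind foreign RNA, membrane proteins that block viral entry or release, GTPases that attack the vacuoles of intracellular pathogens, and the machinery that loads peptides onto MHC class I. Fibroblasts and epithelial cells also keep a low level of this programme without infection.

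Promoter sequences are shown for 4 members on which the results turn: Rsad2 and Ifit1, whose signals ranged most widely over the groups, Irgm1, which differed between the lines at each time, and Irf1, the transcription factor with the highest signal among the members. Each is the stretch of 250 bases before the annotated start in RefSeq (GRCm38.p6), written 5' to 3' on the gene's strand, with matches to an ISRE-like pattern (GAAANNGAAA, either strand) or a GAS-like pattern (TTCNNNGAA, which is its own reverse complement) in capitals.
Rsad2, chr12:26456453-26456702, minus strand: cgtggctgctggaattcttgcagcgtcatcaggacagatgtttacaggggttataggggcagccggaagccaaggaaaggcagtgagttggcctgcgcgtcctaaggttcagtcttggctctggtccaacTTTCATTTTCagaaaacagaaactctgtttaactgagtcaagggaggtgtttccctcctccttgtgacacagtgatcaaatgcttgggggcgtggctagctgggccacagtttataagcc
Ifit1, chr19:34640639-34640888, plus strand: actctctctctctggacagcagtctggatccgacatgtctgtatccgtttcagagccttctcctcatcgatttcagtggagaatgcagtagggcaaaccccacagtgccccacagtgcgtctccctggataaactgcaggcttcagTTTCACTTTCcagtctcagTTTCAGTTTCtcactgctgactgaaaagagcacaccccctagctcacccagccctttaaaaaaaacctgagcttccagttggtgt
Irgm1, chr11:48871421-48871670, minus strand: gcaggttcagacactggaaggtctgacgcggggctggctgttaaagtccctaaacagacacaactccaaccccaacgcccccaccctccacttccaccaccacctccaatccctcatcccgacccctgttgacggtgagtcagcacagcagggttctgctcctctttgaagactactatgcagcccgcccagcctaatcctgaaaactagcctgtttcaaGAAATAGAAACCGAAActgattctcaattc
Irf1, chr11:53769764-53770013, plus strand: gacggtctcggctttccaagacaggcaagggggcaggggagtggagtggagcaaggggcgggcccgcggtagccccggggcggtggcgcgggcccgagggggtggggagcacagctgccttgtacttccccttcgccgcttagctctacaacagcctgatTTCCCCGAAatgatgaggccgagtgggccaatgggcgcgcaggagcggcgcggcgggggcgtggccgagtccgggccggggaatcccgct
The ISRE-like match of Rsad2 began 120 bases before the start. Ifit1 had a pair of them, beginning 104 and 85 bases before it, and the pair in Irgm1 overlapped, beginning 30 and 24 bases before it. Irf1 had no ISRE-like match in this window and a GAS-like match beginning 90 bases before the start. Over windows of 300 bases (250 before and 50 after the start), 31 of the 38 members were found in the RefSeq table. The entries not matched were Tap2, Mx1, Parp14, Usp18, Mx2, Rtp4 and Iigp1. The ISRE-like pattern was present in 15 of the 31 members and in 3.99% of 27025 genes (3.44% of 32851 windows), and the GAS-like pattern in 11 of the 31 members and in 9.55% of genes (8.3% of windows). Among the 22 tested members with a window, 11 held the ISRE-like pattern (Rsad2, Ifit1, Ifit3, Irgm1, Bst2, Trim30a, Stat2, Oas1a, Igtp, Eif2ak2 and Ifitm3). Irf9, Ifi47, Psmb9, Psmb10, Tap1 and Ifitm1 held neither. A match describes letters in the window and is not a measured binding site, and no match says only that these letters are not in this window.

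The array signals were log2 values that spanned 1.84 to 14.03, with array medians between 5.66 and 5.78, and no 2 arrays held identical values. Precision is limited by the small number of arrays. The targeted gene Anxa2 lay between 12.25 and 12.66 on the vector arrays and between 10.58 and 11.23 on the shRNA arrays, with no overlap. In untreated cells the shRNA line was lower by a log2 difference of -1.42 at 2 h and -1.68 at 24 h, the latter 3.19-fold lower, where the labels state a knockdown of more than 95%. Within that line Anxa2 fell by 0.41 from 2 to 24 h (limma, adjusted p = 3.00e-04). The keratinocyte markers Krt1, Krt15, Krt18, Trp63, Cdh1 and Dsp were below the limit in all groups, so part of the epidermal marker set was low. The limit is a filter on low signals, so these markers are not shown to be absent. In all groups 7 of 8 mesenchymal markers were above the limit. Krt5 (4.42 to 4.77 over the group means), Krt8 and Krt10 were above the limit in all 16 groups. Krt14, a basal keratinocyte keratin, was above it in 8 groups and differed between the lines, with untreated means of 3.72 at 2 h and 3.74 at 24 h in vector cells and 6.82 and 6.62 in shRNA cells; its part in the line differences given here was not tested. Of 11 measured leukocyte markers, 5 were above the limit, but Ptprc, which defines leukocytes, lay between 2.41 and 2.73 in every group mean, and Cd68, Itgam, Adgre1, Cd79a and Tyrobp were also below the limit. The summed linear signal of the 11 was 229.4 to 252.6 on the untreated vector arrays at 24 h and 257.2 to 279.6 on the shRNA arrays, and 227.6 to 242.1 and 229.3 to 271.9 at 2 h; its part in the line differences given here was not tested. In these bulk samples fewer cells of a type and less RNA per cell cannot be told apart.

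A set of 3 arrays stood apart in the vector line at 2 h, the replicate 3 array of the untreated, 10 cGy and 100 cGy groups. They stood apart over the tested genes as a whole and not in the members alone. Principal component 2, a score of each array from all tested genes, was -2.37, 1.75 and 0.57 on them. It was -16.9 to -19.6 on their 6 mates and 18.3 to 20.6 on the vector arrays at 24 h. A count of genes above both mates in all 3 groups was made for the members alone. It cannot show whether the members stood out from other genes. On the 3 arrays, 10 of the 24 tested members lay above both mates in all 3 groups: Eif2ak2, Ifit1, Ifit2, Ifit3, Ifitm1, Irf1, Irf9, Irgm1, Rtp4 and Trim30a. Ifit1, for example, read 6.21, 5.85 and 5.91 there against 4.35 to 4.72 on the 6 mates, and Irf1 read 8.43, 7.99 and 8.02 against 7.18 to 7.36. The Gapdh 3' minus 5' difference, a sign of RNA quality, was 0.59, 0.08 and -0.001 on the 3 arrays against a median of 0.01 over all arrays, and the highest values elsewhere were 1.06 on shRNA replicate 1 at 6 h after 10 cGy and 0.49 on shRNA replicate 2 at 2 h after 100 cGy. What set these arrays apart was not tested. The main counts that use the vector line at 2 h are given with and without them, and values of single members only in part. These arrays were singled out in part by the members' own values, Ifit1 among them, so leaving them out must raise the later change of those members and lower their spread. A call gained without them is a description and gives no independent support.

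Over the 16 groups, most tested members had their highest mean in vector cells at 24 h. The group with the highest mean was a vector group at 24 h for 16 of the 24 tested members; of those, 12 peaked after 100 cGy. The lowest mean lay in vector cells at 6 h for 11 members, in shRNA cells at 2 h for 5 and in shRNA cells at 6 h for 4. Shares by group are a description of these means and were not tested. The same counts were not made over all tested genes, so they are not read as a trait of the members. Where a mean peaked is also not a dose effect, since no tested member was called for dose in the main fit.

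**Figure D1:**
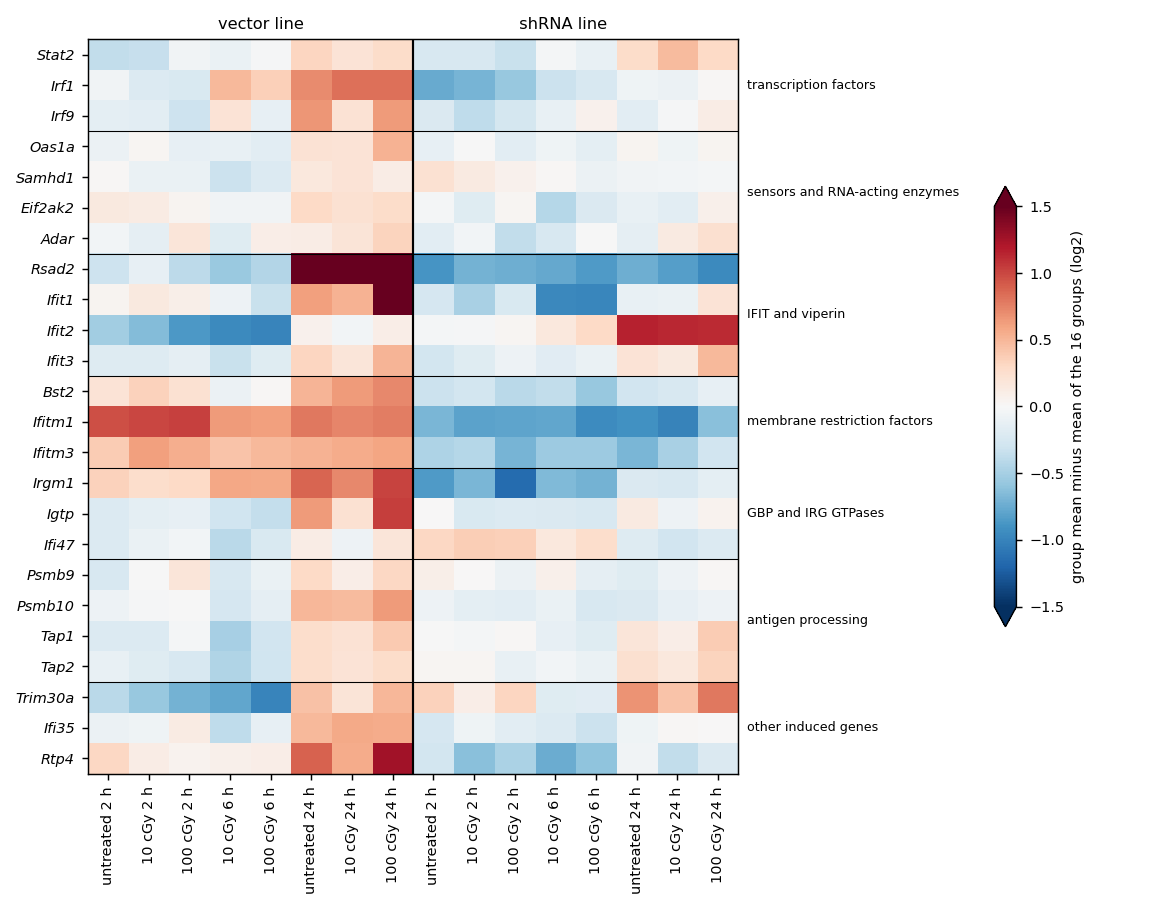
Group means of the 24 tested members (rows, ordered by role) in the 16 groups (columns, vector line left and shRNA line right), as log2 signal minus the gene's mean over the groups; colours saturate beyond 1.5 either way. Rsad2 is highest in the 3 vector columns at 24 h, Ifit2 in the 3 shRNA columns at 24 h, and Ifitm1, Ifitm3 and Irgm1 are higher in every vector column than in any shRNA column.

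The first question was how the members changed from 2 to 24 h in untreated cells of each line, apart from radiation. In the vector line 17 of 24 members rose and 0 fell, against a background of 25.9% of tested genes called in either direction and 13% called higher. The median difference was 0.54 on the log2 scale for the members and 0.02 for all tested genes. In the shRNA line 5 members rose and 2 fell, against a background of 19.2%, (10.1% higher and 9.14% lower), with a median of 0.15 for the members and 0.02 for all genes. The difference between these 2 changes passed the test for 4 members, all with the smaller or opposite change in the shRNA line, against a background of 5.69% (2.97% higher and 2.72% lower). Its median was -0.32 for the members and 0.00 for all genes. Calls here and below are from limma with Benjamini-Hochberg adjustment over all 8675 tested genes, at an adjusted p under 0.05.

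The largest change was in Rsad2, which encodes viperin, an antiviral enzyme of the endoplasmic reticulum that makes a chain-terminating nucleotide. Its log2 signal in untreated vector cells was 4.45, 4.71 and 5.61 at 2 h and 8.46, 8.74 and 8.39 at 24 h. In untreated shRNA cells it was 4.46, 4.15 and 4.45 at 2 h and 4.40, 4.49 and 4.62 at 24 h. All vector arrays at 24 h thus lay far above every other array, and the shRNA arrays stayed near the limit at both times. That limit is a filter on low signals and not a floor of detection, but RMA compresses differences between low signals. In the vector line the signal rose by 3.61 ± 0.22 (log2 difference ± SE, n = 3 and 3 arrays; limma adjusted p = 1.75e-15). The shRNA line showed 0.15 ± 0.22 (adjusted p = 0.704). The difference between the lines was -3.46 ± 0.31 (adjusted p = 2.37e-10), and -3.80 ± 0.28 without the 3 arrays that stood apart. The 2 other probe sets of Rsad2, both below the limit, gave -2.71 and -3.17.

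The other 3 members with different changes were Ifi47, an interferon-inducible GTPase, and the proteasome subunits Psmb9 and Psmb10, which replace standard catalytic subunits in the immunoproteasome. Ifi47 read 4.82, 4.66 and 4.94 at 2 h and 5.06, 5.22 and 5.09 at 24 h in vector cells, against 5.57, 5.06 and 5.36 and then 4.71, 4.82 and 4.93 in shRNA cells. The arrays of each line did not overlap between the times and moved in opposite directions, up by 0.32 ± 0.11 in vector cells (adjusted p = 0.0381, a call lost in 5 of the 6 fits that left out an array of these groups) and down in shRNA cells, where Ifi47 fell by 0.51 (adjusted p = 0.00116). The difference between the lines was -0.83 ± 0.16 (adjusted p = 9.24e-04).

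Psmb9 read 4.74, 4.77 and 4.43 at 2 h and 4.98, 5.13 and 5.48 at 24 h in vector cells. In shRNA cells it read 4.97, 5.13 and 4.85 at 2 h and 4.53, 4.84 and 4.76 at 24 h. It rose in the vector line without overlap, the shRNA change of -0.28 ± 0.12 was not called, and the lines differed by -0.83 ± 0.17 (adjusted p = 0.00135). Psmb10 read 6.72, 6.65 and 6.66 and then 7.18, 7.16 and 7.45 in vector cells, and 6.53, 6.69 and 6.85 and then 6.58, 6.58 and 6.48 in shRNA cells. It rose in vector cells, again without overlap, while the shRNA groups overlapped. The difference between the lines was -0.72 ± 0.19 (adjusted p = 0.0139), a call that was lost without shRNA 2 h replicate 3 (0.0578) or vector 24 h replicate 3 (0.0631). Of the 4 members, Rsad2 was the 1 with an ISRE-like match in its promoter window.

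The other 13 members that rose in the vector line did so by less than 1 log2 unit. Among the transcription factors, Irf9 and Stat2, the DNA-binding and STAT parts of the type I complex, rose by 0.80 and 0.69, and Irf1, a factor induced by interferon gamma, by 0.76. Of the IFIT genes, whose proteins bind foreign or unmethylated-cap RNA, Ifit2 rose by 0.59 and Ifit3 by 0.51. The GTPases Igtp and Irgm1, which act on pathogen vacuoles, rose by 0.84 and 0.53. The peptide transporter subunits Tap1 and Tap2 rose by 0.46 and 0.37, although the mean of all probe sets gave Tap1 0.14, which was not called. Trim30a, a TRIM-family regulator, rose by 0.84, Rtp4, a receptor chaperone, by 0.58 (0.27 and not called with the mean of its probe sets) and Ifi35 by 0.57. Of the 4 sensors and RNA-acting enzymes, Oas1a rose by 0.30, and Eif2ak2 (the kinase PKR), Adar and Samhd1 were not called. Among these 13 rises, the calls of Ifit2, Oas1a and Tap2 were lost in 4 of the 6 fits that left out an array of these groups. Those of Ifit3 and Rtp4 were lost in 3, of Irgm1 and Irf1 in 2, and of Irf9 in 1. Stat2, Igtp, Tap1, Trim30a and Ifi35 kept the call in all 6. None of the 3 membrane factors Bst2, Ifitm1 and Ifitm3 was called between the times in either line.

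In the shRNA line the 5 members that rose were Ifit2 by 1.18 ± 0.22 (adjusted p = 1.16e-04), Irf1 by 0.69, Irgm1 by 0.63, Stat2 by 0.52 and Ifit3 by 0.49. Ifi47 and Samhd1, a nucleotide hydrolase, were the 2 that fell, Samhd1 by 0.28, though the mean of its probe sets gave 0.016. For the 5 risers the difference between the lines was not called. Its 95% interval ran from -0.67 to 0.53 for Irf1, from -0.36 to 0.56 for Irgm1, from -0.46 to 0.42 for Ifit3 and from -0.60 to 0.26 for Stat2. Ifit2 read 5.95, 5.90 and 6.82 at 2 h and 6.88, 6.66 and 6.89 at 24 h in vector cells, and 6.54, 6.68 and 6.89 and then 8.10, 7.83 and 7.74 in shRNA cells. It was thus higher in the shRNA line at 24 h with no overlap, the reverse of Rsad2, and its difference of change was 0.60 (95% interval -0.03 to 1.23).

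**Figure D2:**
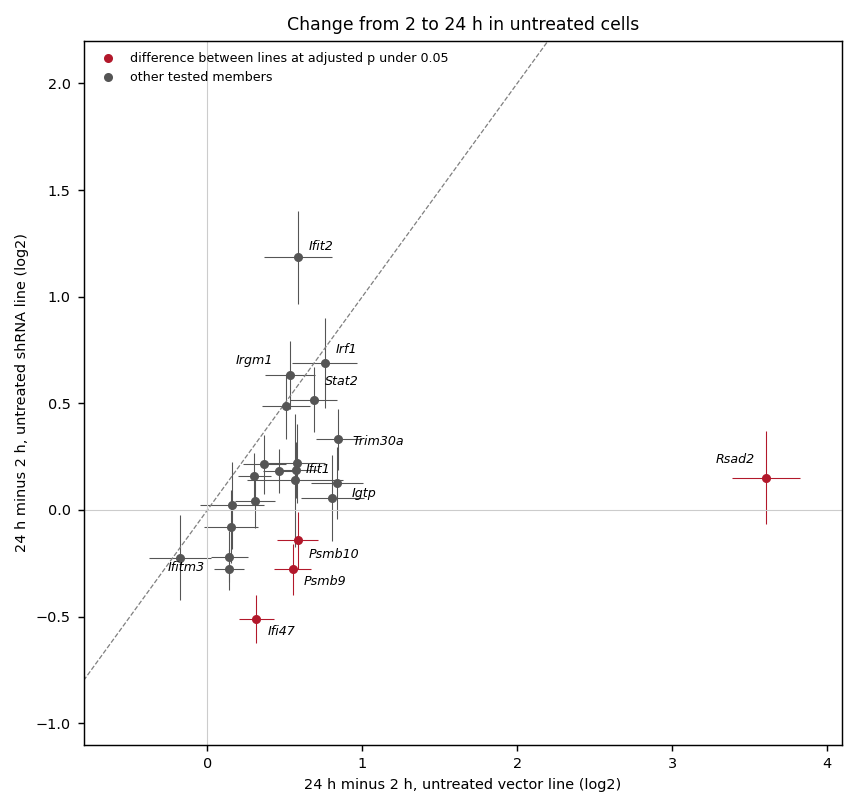
Log2 difference between 24 and 2 h in untreated vector cells (horizontal) and untreated shRNA cells (vertical) for the 24 tested members, with standard errors; the dashed line marks equal change. Rsad2 lies at 3.61 and 0.15, and Ifi47, Psmb9 and Psmb10 (red) have values above 0 in the vector line and below 0 in the shRNA line.

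The counts in the vector line depended on single arrays at 2 h. Without untreated vector 2 h replicate 2, 9 members were called, without replicate 1, 10, and without replicate 3, 17. Without the 3 arrays that stood apart 17 were called, of which 16 were among those above. Ifit1 was then gained with 1.18 ± 0.15 (adjusted p = 1.77e-07), and Tap2 was lost at 0.19. On the same arrays Irf1 gave 1.15 ± 0.13, and Irf9 1.18. The difference between the lines was then called for 8 members, the 4 above with Ifit1 (-1.04), Irf9 (-1.13), Trim30a (-0.72) and Rtp4 (-0.72). The 4 gained are all among the 10 members that were high on the arrays left out. In the shRNA line the 7 calls became 3 without untreated 2 h replicate 2, and 4 without 2 h replicate 3 or 24 h replicate 3.

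The same comparison was made in irradiated cells, a contrast added after the values were seen. From 2 to 24 h after 100 cGy, 16 members rose and 0 fell in the vector line (22.8% of tested genes called), and 10 rose and 1 fell in the shRNA line (26.1%). After 10 cGy the counts were 8 and 0 (18.6%) and 4 and 1 (20.5%). Rsad2 rose in the vector line at each dose and was not called in the shRNA line, with a difference of change of -3.31 after 100 cGy and -2.55 after 10 cGy. Ifi47 fell in the shRNA line, by 0.56 after 100 cGy and 0.66 after 10 cGy, and was not called in the vector line (0.22 and 0.02), a difference of -0.78 and -0.68; the 10 cGy call was lost in 3 of the 11 fits that left out an array. After 100 cGy, Rtp4 (-0.95), Igtp (-0.89) and Trim30a (-0.74) also differed between the lines, calls lost in 6, 6 and 5 of 12 such fits, and Rtp4 gave -0.50 (not called) with the mean of its probe sets. These were 5 called members at 100 cGy (background 5%) and 2 at 10 cGy (3.55%). Without the 3 arrays that stood apart, 9 and 6 were called. The differences of Rsad2 and Ifi47 were thus measured in untreated, 10 cGy and 100 cGy arrays of the same lines. These are not shown to be independent repeats. Same-numbered arrays of a line and time had correlated deviations in 27 of 40 pairs. An array that stood apart is in each vector group at 2 h.

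The second question was how the 2 lines differed at each time. In untreated cells at 24 h, 13 members were lower and 1 was higher in the shRNA line, against a background of 39.3% of tested genes called (19.4% higher and 19.9% lower). The median of the members was -0.50 on the log2 scale and that of all genes 0.02. None of these 14 members had overlapping arrays, which adds no support to calls made on the same arrays. The share of all tested genes without overlap was not counted. At 2 h, 7 were lower and 3 higher (background 33.8%, 16.3% higher and 17.5% lower), with a median of -0.08 for the members. Without the 3 arrays that stood apart, 7 members were called at 2 h, with a median of -0.003. Of these, 6 were the same: Irgm1, Bst2, Trim30a, Ifi47, Ifitm1 and Ifitm3. In irradiated cells at 6 h, 7 were lower and 6 higher (background 49.8%, 25.3% higher and 24.5% lower), with a median of -0.02. The share of members called was therefore near that of all genes at 2 and 6 h.

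Rsad2 showed the largest difference at 24 h, -4.03 ± 0.22 (adjusted p = 7.60e-18), on the arrays listed above. The shRNA arrays lay near the limit, so this size is not read as an exact fold. At 2 h it differed by -0.57 with overlapping arrays, and by -0.23 (adjusted p = 0.440) without the 3 arrays that stood apart. At 6 h the difference was -0.31 and was not called. Before 24 h Rsad2 read at most 5.61 on any array of either line.

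The membrane factors differed at all 3 times. Ifitm1, which blocks fusion of viruses with the cell, read 6.22, 6.24 and 6.19 in vector cells and 4.69, 4.34 and 4.53 in shRNA cells at 24 h (-1.70 ± 0.20, adjusted p = 7.85e-09). Ifitm3, its relative in endosomes and the member with the highest signal, read 12.35, 12.40 and 12.41 against 11.07, 11.34 and 11.12 (-1.21 ± 0.12, adjusted p = 1.64e-10). Bst2, or tetherin, which holds budding viruses at the cell surface, read 7.42, 7.08 and 7.48 against 6.61, 6.55 and 6.43 (-0.80 ± 0.13, adjusted p = 3.20e-06). None of the 3 had overlapping arrays at 24 h, and Ifitm1 lay near the limit of 4.35 in shRNA cells. At 2 h the differences were -1.66, -0.85 and -0.53, and at 6 h -1.49, -1.0 and -0.43, in the same order, and all were called.

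Irgm1, an immunity-related GTPase that regulates its family, showed the same steady gap. It read 7.78, 7.62 and 7.74 in vector cells and 6.68, 6.68 and 6.51 in shRNA cells at 24 h (-1.09 ± 0.16, adjusted p = 7.23e-07). The differences at 2 and 6 h were -1.19 and -1.27. Irf1 was lower by -0.71 at 2 h, -0.71 at 6 h and -0.78 at 24 h, although the 2 h call was lost without the arrays that stood apart (-0.32, adjusted p = 0.0619). Rtp4 read 5.79, 6.02 and 5.86 against 5.17, 4.60 and 5.09 at 24 h (-0.94 ± 0.19, adjusted p = 8.99e-05), and its 2 h call was also lost without those arrays (-0.21). Its second probe set, with a mean of 2.87, gave -0.06 at 24 h.

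A second set of members was called lower in shRNA cells at 24 h but at neither earlier time. Irf9 read 5.68, 5.40 and 5.19 in vector cells and 4.57, 4.51 and 4.73 in shRNA cells (-0.82 ± 0.20, adjusted p = 0.00122). Psmb10 (-0.71), Ifi35 (-0.55), Igtp (-0.50) and Psmb9 (-0.49) were also lower at 24 h. Of these, Psmb9 was higher in the shRNA line at 2 h, by 0.34, a call lost without the 3 arrays that stood apart (0.23, adjusted p = 0.178). Igtp and Ifi47 (-0.30) were the calls at 24 h that single arrays removed, in 3 and 4 of the 6 fits that left out an array of these groups.

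Members that were higher in the shRNA line differed by time. Ifit2 was higher by 1.08 ± 0.22 at 24 h (adjusted p = 1.17e-04) and 1.19 at 6 h, and by 0.48 at 2 h, which was called only without the 3 arrays that stood apart (0.78). Trim30a was higher by 0.75 at 2 h and 0.71 at 6 h, and its 0.23 at 24 h was not called. Ifi47 was higher by 0.52 at 2 h and 0.53 at 6 h and lower at 24 h. At 6 h Tap1 (0.25, but 0.03 and not called with the mean of its probe sets), Tap2 (0.30) and Samhd1 (0.23) were higher as well, and Ifit1 was lower (-0.77), which read 3.90 to 4.05 on the 6 shRNA arrays and 4.45 to 4.90 on the 6 vector arrays. Within the IFIT family the lines therefore differed in opposite directions for Ifit1 and Ifit2, and Ifit3 was not called at any of these times.

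**Figure D3:**
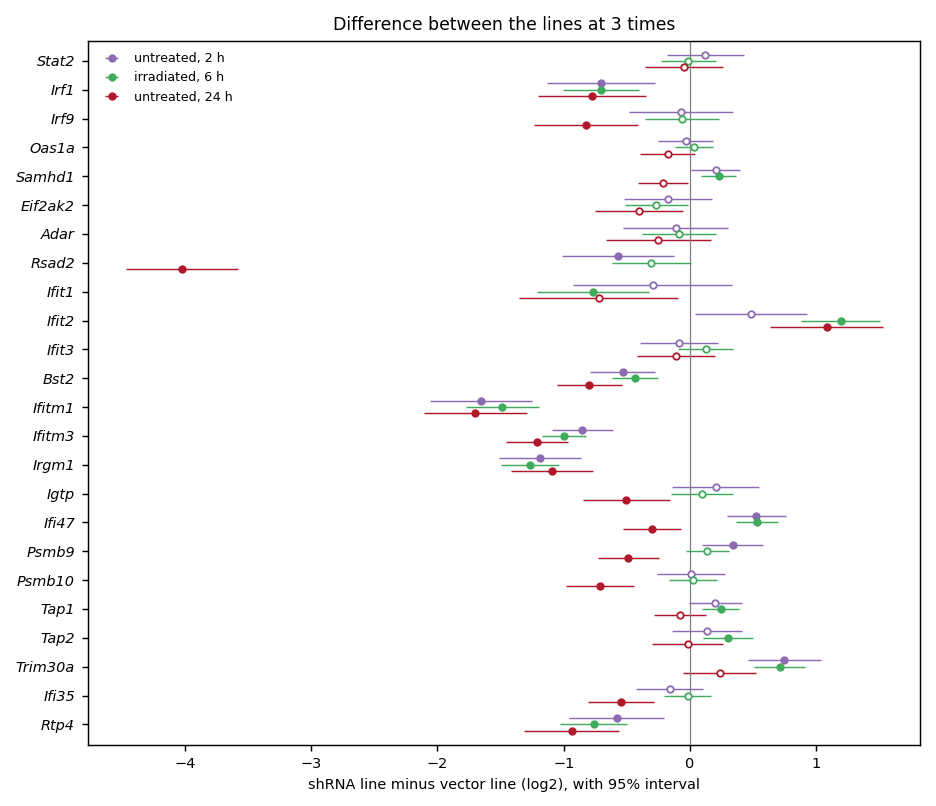
Log2 difference between the shRNA and vector lines, with 95% intervals, for the 24 tested members in untreated cells at 2 and 24 h and in irradiated cells at 6 h; filled points passed the test. The points of Ifitm1, Ifitm3 and Irgm1 lie near each other at the 3 times, that of Rsad2 is at -4.03 at 24 h, and those of Ifit2 lie to the right of 0.

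The gap at 24 h was also measured in irradiated cells, in contrasts added after the values were seen. After 100 cGy, 14 members were lower and 1 higher in the shRNA line (background 38.3%), and after 10 cGy 9 were lower and 1 higher (33.7%). Ifit2 was the higher member each time, by 1.01 and 1.17. Rsad2 was lower by -3.66 and -3.14. Ifit1, which was not called in untreated cells (-0.72 ± 0.31, adjusted p = 0.0625), was lower by -1.69 after 100 cGy (adjusted p = 2.91e-05).

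In irradiated cells the course could be followed over 3 times, with both doses averaged. From 2 to 6 h, 1 member rose and 5 fell in the vector line (background 16.7%, 8.9% higher and 7.82% lower), and 0 rose and 2 fell in the shRNA line (21.5%, 9.51% lower). Irf1 was the riser, by 0.64 ± 0.15 (adjusted p = 0.00213), and Bst2, Tap1, Ifi35, Psmb9 and Ifi47 fell by 0.25 to 0.32. Leaving out the 3 vector arrays at 2 h that stood apart, 5 members were called, of which 3 were the same: Irf1 (0.90), Psmb9 (-0.30) and Tap1 (-0.24). Bst2 (-0.22), Ifi35 (-0.11) and Ifi47 (-0.24) were then not called, and Irgm1 (0.51) and Irf9 (0.48) were gained. The mean of all probe sets gave Tap1 -0.064, also not called. In shRNA cells Trim30a fell by 0.39 and Ifit1 by 0.62, the latter a call lost in 9 of 12 fits that left out an array. From 6 to 24 h, 19 members rose and 0 fell in the vector line (background 39%, 22.4% higher; median 0.56 against 0.02 for all genes). In the shRNA line 11 rose and 1 fell (background 39.2%, 20.7% higher; median 0.28 against -0.01).

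Rsad2 rose by 3.01 from 6 to 24 h in irradiated vector cells, from 4.27 to 4.91 on the 6 arrays at 6 h to 7.53 to 8.16 on the 5 arrays at 24 h. Ifit1 rose by 1.42 and Trim30a by 1.23 in the same cells, and by 1.03 and 0.79 in shRNA cells, where Ifit2 rose by 0.90. In vector cells Irf1 alone was called higher from 2 to 6 h, joined by Irgm1 and Irf9 without the arrays that stood apart. The change of Irf1 from 6 to 24 h was 0.40, a call lost in 8 of 11 fits that left out an array. Whether the changes between 2 and 6 h or 6 and 24 h differed between the lines was not tested.

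**Figure D4:**
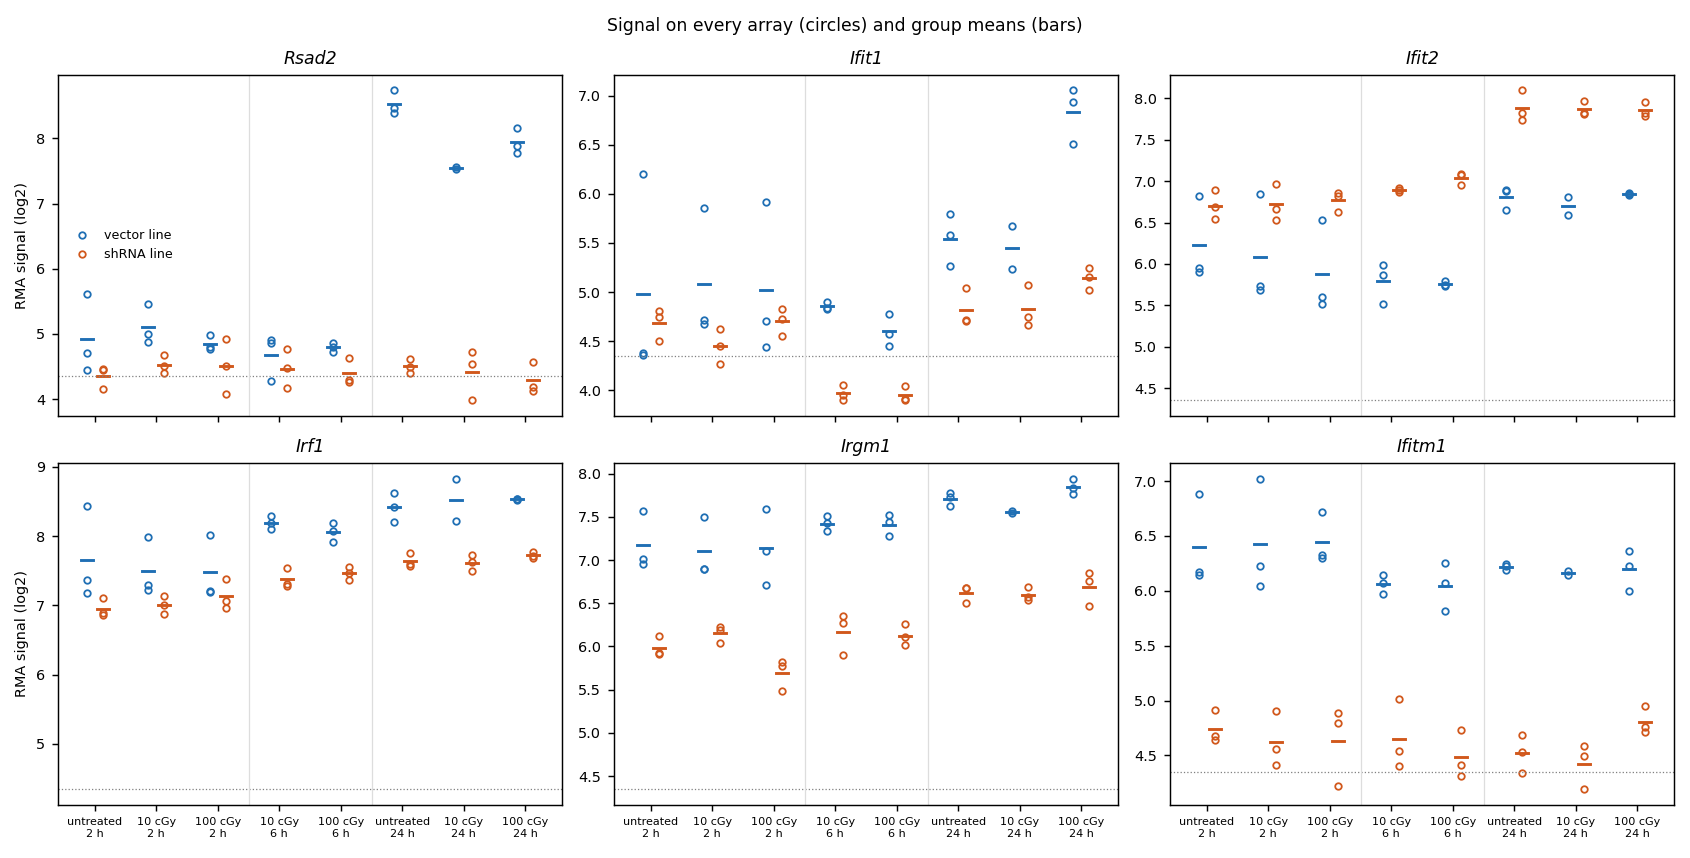
Log2 signal of 6 members on every array (circles) with group means (bars) for the vector and shRNA lines in each condition; the dotted line is the limit of 4.35. In the vector line at 2 h 1 circle of each group lies above its mates for Ifit1, Ifit2, Irf1, Irgm1 and Ifitm1, and the highest Ifit1 circles are the 3 of the vector line at 24 h with 100 cGy.

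The third question was the effect of dose. None of the 24 tested members was called in any of the 8 comparisons of 10 or 100 cGy with untreated cells of the same line and time, nor between the lines in the effect of 100 cGy, nor between 100 and 10 cGy at 6 or 24 h. The background in these comparisons was low: 0% of tested genes for 10 cGy at 2 h and 0.0115% at 24 h in vector cells, 0.0461% for 100 cGy at 2 h and 0.0922% at 24 h in vector cells, and 0.0115%, 0%, 0.0231% and 0.161% for the same 4 comparisons in shRNA cells. For the lines' difference at 100 cGy it was 0.0115% at 2 h and 0.0807% at 24 h. For 100 against 10 cGy it was 0.0922% and 0% at 6 h and 0% and 0.161% at 24 h, in vector and shRNA cells. At an unadjusted p under 0.05, 5 members stood out for 100 cGy at 24 h in vector cells and 1 in shRNA cells, 3 and 0 for 100 cGy at 2 h, 2 and 0 for 10 cGy at 24 h, and 1 and 0 for 10 cGy at 2 h. The corresponding numbers were 2 and 3 for the lines' difference at 100 cGy at 2 and 24 h. Between 100 and 10 cGy they were 1 and 0 at 6 h and 4 and 3 at 24 h, in vector and shRNA cells. The share of all tested genes at this unadjusted threshold is not given here. The backgrounds above are for adjusted calls and cannot be set beside these counts, so the counts are not read as a dose effect. The 95% intervals of all members at 10 cGy in shRNA cells lay between -0.86 and 0.62 at 2 h and between -0.70 and 0.69 at 24 h. Dose calls appeared under some other settings for Ifit1 and Rsad2.

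Ifit1, an RNA-binding inhibitor of translation, had the largest dose difference. At 24 h its log2 signal in vector cells was 5.58, 5.79 and 5.26 untreated, 5.23 and 5.68 after 10 cGy, and 6.51, 6.94 and 7.06 after 100 cGy. In shRNA cells it was 4.71, 4.71 and 5.04 untreated, 4.74, 4.67 and 5.07 after 10 cGy, and 5.16, 5.03 and 5.25 after 100 cGy. The 100 cGy vector arrays lay above all others of that time, and the shRNA groups overlapped. The vector difference between 100 cGy and untreated was 1.29 ± 0.31 (2.45-fold; adjusted p = 0.148) and did not pass the test. With the replicate number as a block, which paired these samples, it was 1.29 ± 0.14 (adjusted p = 9.51e-06), when the fit held the compared groups alone the adjusted p was 0.0230, and without the 3 arrays of the 2 h vector groups it was 2.23e-07.

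Those 3 arrays are not in the comparison and enter only the shared estimate of spread. They were singled out in part by their Ifit1 values, so the p-values without them are not independent support. The block was set within every line and time, so it also took up the shift that these 3 arrays shared. The SE was 0.14 both with the block and without the 3 arrays, against 0.31 in the main fit. The fit of the compared groups alone leaves them out as well. How much of the smaller SE came from pairing was not tested. The shRNA line gave 0.32 (95% interval -0.31 to 0.95), and the difference between the lines was -0.97 ± 0.44 (adjusted p = 0.997), or 0.0340 with the block and 0.0151 without the 3 arrays. Between 100 and 10 cGy in vector cells the difference was 1.38 ± 0.35 (adjusted p = 0.532), or 1.29 ± 0.16 with the block (adjusted p = 1.93e-04), and the adjusted p without the 3 arrays was 1.34e-06. Ifit1 thus passed or missed the threshold by the choice of fit.

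Rsad2 pointed the other way in vector cells at 24 h. It read 7.53 and 7.57 after 10 cGy and 7.78, 8.16 and 7.89 after 100 cGy, all below the 3 untreated arrays. The differences were -0.98 ± 0.25 and -0.59 ± 0.22, and neither passed the test (adjusted p = 1.0 for both). With the mean of all its probe sets the 10 cGy difference was -0.97 ± 0.15 (adjusted p = 0.00102). Other members with small dose differences that were not called were Psmb9 at 2 h after 100 cGy in vector cells (0.43, adjusted p = 0.223) and Ifitm3 at 24 h after 100 cGy in shRNA cells (0.40, adjusted p = 0.450).

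**Figure D5:**
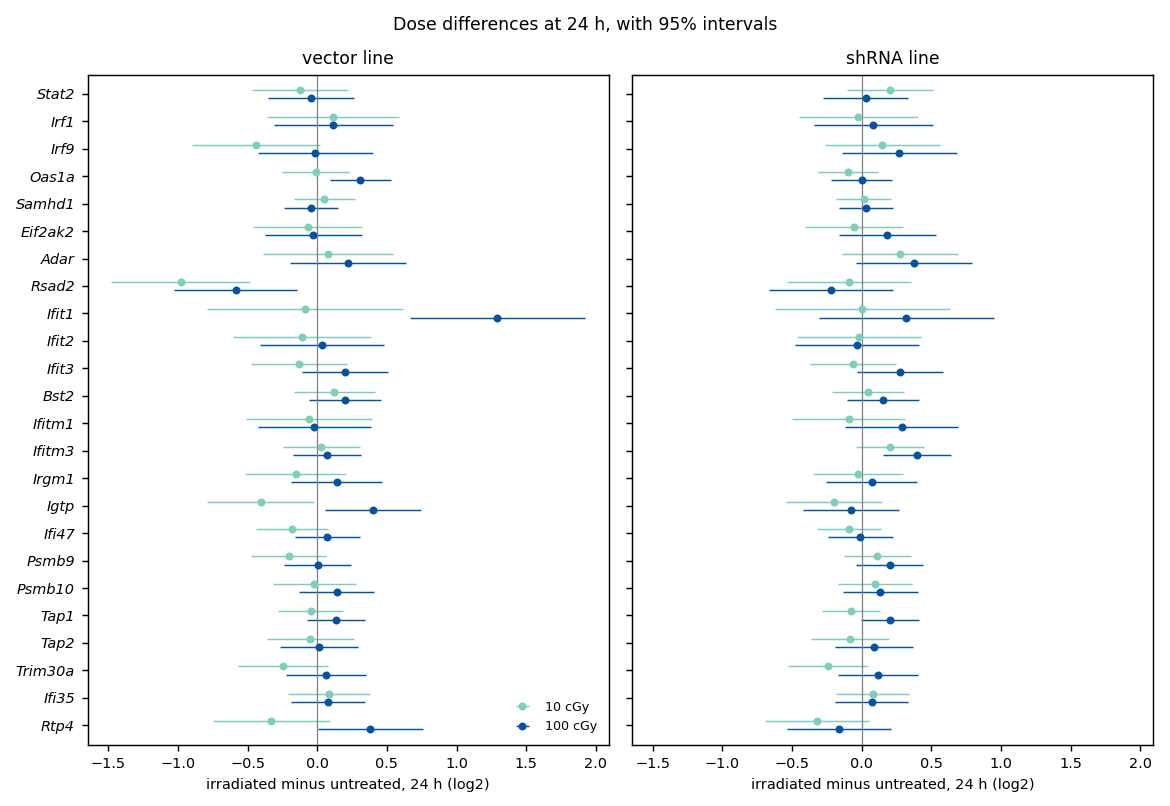
Log2 difference between irradiated and untreated cells at 24 h with 95% intervals for the 24 tested members, in the vector line (left) and the shRNA line (right). Ifit1 at 100 cGy (1.29) and Rsad2 at 10 cGy (-0.98) in the vector line lie farthest from 0; no point passed the test after adjustment.

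The 11 members below the limit were examined in a fit of all 12393 genes with no filter. Near the limit a member can be called only through the group where it is high, so no count over them is read as a result. Usp18, which removes ISG15 from proteins and restrains the type I receptor, had the widest range among them. Because Usp18 was chosen by its values, its p-values are a description and give no independent support. It read 3.57, 3.73 and 4.13 at 2 h and 4.69, 4.49 and 4.82 at 24 h in untreated vector cells, and 3.33, 3.36 and 3.24 and then 3.05, 3.53 and 3.18 in shRNA cells. The vector arrays at 24 h lay above all the others, and the difference of change between the lines was -0.91 ± 0.20 (adjusted p = 0.00330; background 3.47% in this fit).

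Usp18 also differed by dose among irradiated vector cells at 24 h, in a contrast added after the values were seen. It read 4.27 and 4.25 after 10 cGy and 5.22, 5.12 and 5.36 after 100 cGy, a difference of 0.98 ± 0.16 (limma adjusted p = 0.00278) with no overlap. Usp18 was the 1 gene of 12393 called in this comparison, so the background of 0.00807% is Usp18 itself. As above, its p-value is a description and gives no independent support. Against the untreated cells neither dose was called. In untreated cells at 24 h, Usp18 (-1.41), Oasl2 (-1.06), the guanylate-binding protein gene Gbp2 (-0.94), Parp14 (-0.50) and Iigp1 (-0.42) were lower in shRNA cells (background 28.1%). Irf7, Ifih1, Psmb8 and Mx2 were not called in any comparison.

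Other genes of the pathway came from a list of 120 names, of which 3 repeat a gene under an older name. A total of 88 had a probe set, and 61 were tested. The interferon genes themselves were low: group means were 3.95 to 4.51 for Ifnb1, 4.36 to 4.73 for Ifna1, and below 4 for Ifna2, Ifna4 and Ifng, of which Ifna1 alone was above the limit. In untreated vector cells from 2 to 24 h 17 rose and 4 fell (median 0.13; background 25.9%), and in shRNA cells 6 rose and 8 fell (median 0.07; 19.2%). At 24 h 10 were higher and 20 lower in the shRNA line (median -0.12; 39.3%). The change with time differed between the lines for 4, with 1 higher and 3 lower in the shRNA line (median -0.06; 5.69%).

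These 4 were Stat3, a STAT factor of the interleukin-6 family (-0.80 ± 0.12, adjusted p = 2.89e-05), Cxcl10, an interferon-induced chemokine (-1.27 ± 0.30, 0.00759), Ifi202b, a DNA-binding HIN-200 protein (-0.36, 0.0477), and the phosphatase gene Ptpn11 (0.38, 0.0131). Cxcl10 read 5.85, 5.98 and 6.35 and then 6.90, 6.94 and 7.15 in vector cells, and 5.53, 5.81 and 5.78 and then 5.35, 5.36 and 5.41 in shRNA cells. It thus rose without overlap in the vector line, as Rsad2 did, and its 24 h shRNA arrays were the lowest of the 4 groups.

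At 24 h the pathway genes with the smallest p between the lines were Erap1, which trims peptides for MHC class I (-1.33), Plscr1 (-1.12), the DNA-sensing adaptor gene Sting1 (-1.22), the MHC class I gene H2-D1 (1.26), Slfn2 (-1.08), the feedback inhibitor gene Socs3 (-1.25), the proteasome activator gene Psme1 (-1.04) and the exonuclease gene Isg20 (1.53). Class I genes are closely alike in sequence, and the probe set of H2-D1 may bind more than 1 of them, so that value is uncertain. The receptor gene Ifnar1 was lower by -0.50. One gene of the list was called for dose: Ccl5, a chemokine, at 24 h after 100 cGy in vector cells. It read 7.09, 6.84 and 7.26 against 6.08, 5.98 and 5.99 untreated (1.05 ± 0.20, adjusted p = 0.0120; background 0.0692% called higher), with no overlap. In shRNA cells Ccl5 read 5.50, 5.59 and 5.38 untreated and 5.59, 5.28 and 5.35 after 100 cGy.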

How the data were processed

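Log2 expression values for 47 arrays of 22690 probe sets were used as the authors deposited them; per the submitters' processing notes they were made with RMA, whose version was not given in the sources used here. RMA corrects background, quantile-normalises arrays and summarises probes, which compresses differences between low signals. Of the probe sets 64 were controls, the annotation gave 1 symbol for 20380, more than 1 for 691 and no symbol for 1555. For each of 12393 genes the probe set with the highest mean was kept, and genes in the lowest 30% by mean (below 4.35) were left out. Symbols of 35 members matched RefSeq (GRCm38.p6), whose promoter table gave the sequences.

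One linear model of the 16 group means was fitted to all arrays in R 4.3.3 with limma 3.58.1 (lmFit and eBayes, 31 residual and 5.68 prior degrees of freedom), with Benjamini-Hochberg adjustment over all tested genes of each comparison at 0.05. Time comparisons in irradiated cells, line differences at 24 h after each dose and 100 against 10 cGy at 24 h were added after the values were seen. The members and lists were chosen with earlier results of these data known. Values on every array are given for the called members with the 8 largest differences in the untreated change between lines and in the line difference at 24 h, and for members singled out after their values were seen; other members are given by count and range, every member called for dose is named, and of the other pathway list up to 8 called genes with the smallest p are named, others being chosen after their values were seen. The targeted gene is always named.

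Group labels share replicate numbers. Same-numbered arrays of 1 line and time had correlated deviations from their group means in 27 of 40 pairs (r above 0.1; range -0.29 to 0.72). All 3 pairs passed for 100 cGy against untreated vector cells at 2 h and at 24 h (at 24 h 0.20, 0.27 and 0.15), so the fit with the number as a block is given beside the 24 h result. Alternatives were no filter, the mean of all probe sets, quantile normalisation, only the compared groups, the replicate block, limma-trend, leaving out each array, and leaving out the 3 vector arrays at 2 h that stood apart. The fit was also run on simulated data with known changes and independent noise. That run cannot show how the fit behaves with correlated arrays such as these. Stretches matching the promoter patterns were searched on both strands.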

Additional observations from a re-analysis of the deposited data

Results flagged for a closer look

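Every result here is a difference between the lines in the change from 2 to 24 h, tested as an interaction in limma (shRNA change minus vector change, log2); no group held the 4 arrays needed to look for a single outlying array. In untreated cells Rsad2 differed by -3.46, Psmb9 by -0.83, Ifi47 by -0.83 and Psmb10 by -0.72. After 10 cGy Rsad2 differed by -2.55 and Ifi47 by -0.68. After 100 cGy Rsad2 differed by -3.31, Rtp4 by -0.95, Igtp by -0.89, Ifi47 by -0.78 and Trim30a by -0.74. Leaving out single arrays removed the call of Ifi47 after 10 cGy in 3 of 11 fits, and after 100 cGy those of Rtp4, Igtp and Trim30a in 6, 6 and 5 of 12. The 3 vector arrays at 2 h that stood apart enter each of these values, and their part in the counts is given with the processing.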

How the results depend on the processing

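Of 176 calls of a member in a comparison, 120 kept direction and call under every alternative tried and 56 lost the call at least once; over 2627 refits 2389 kept both, 237 lost the call and 1 turned. That 1 was Samhd1 from 2 to 24 h in untreated shRNA cells, 0.016 with the mean of all probe sets against -0.28. Counts of called members that moved by more than 1.5 times were as follows. When the fit held the compared groups alone, 6 members were called between the lines at 2 h, 7 from 2 to 24 h in untreated vector cells, 2 from 6 h against 2 h in irradiated vector cells and 4 in shRNA cells, 1 for 100 cGy at 24 h in vector cells, 2 from 2 to 24 h after 10 cGy in vector cells, and 3 for the difference of that change after 100 cGy. Without the 3 vector arrays at 2 h, the difference of change between the lines was called for 8 members untreated, 6 after 10 cGy and 9 after 100 cGy, the change after 10 cGy for 15 in vector and 8 in shRNA cells, 6 h against 2 h in shRNA cells for 6, and Ifit1 gave 1 call each for 100 cGy in vector cells at 24 h, for its difference between the lines and for 100 against 10 cGy. The replicate block gave 1 call for the same 3 comparisons, again Ifit1, and moved no other count by over 1.5 times. No filter gave 1 call for 6 h against 2 h in shRNA cells, quantile normalisation 3 for the change after 10 cGy in shRNA cells, and the mean of all probe sets 1 for 10 cGy at 24 h in vector cells. Leaving out each array gave 7 to 10 members between the lines at 2 h, 12 to 14 at 24 h and 13 to 14 at 6 h. It gave 9 to 17 for the untreated change with time in vector cells, 3 to 7 in shRNA cells and 3 to 7 for their difference. After 10 cGy these were 4 to 12, 3 to 4 and 1 to 5, and after 100 cGy 15 to 16, 7 to 10 and 2 to 6. For 6 h against 2 h they were 4 to 8 in vector and 1 to 2 in shRNA cells, and 0 in every dose comparison. For 24 h against 6 h they were 16 to 20 and 11 to 15. The causes were not tested. No scaling moved the median of all genes by more than 0.038. RMA compresses differences between low signals, so signals near the limit show poorly how low a gene was. The 2 or 3 arrays per group limit what differences could be called.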
